A study of Mus musculus with 12 samples.

Results

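The 10 genes described here belong to the Polycomb group, measured in cultured mouse hematopoietic stem cells (HSCs) with and without the leukemia fusion ETV6-RUNX1. They were chosen by name from the gene table of the series, 1 row per gene identifier, and make up 10 of 40481 genes. Ezh1, Ezh2, Eed, Suz12 and Jarid2 encode parts of Polycomb repressive complex 2 (PRC2), and Bmi1, Rnf2, Cbx2, Cbx7 and Cbx8 encode parts of Polycomb repressive complex 1 (PRC1). All 10 passed the expression filter of at least 1 CPM (reads scaled to a common library total) in at least 3 of 12 libraries, and the lowest value of any of them in any library rested on 117 reads.

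Sorted HSCs had 2 sources, the liver of E14.5 embryos and the marrow of mice aged 8 weeks. For each source, some came from wild type (WT) mice and others from mice with an inducible fusion that the labels call iE/R. Every group, WT included, was then kept for 3 days under HSC expansion conditions with 1 µg/mL doxycycline, the inducing drug. The 4 groups of 3 libraries are WT bone marrow, iE/R bone marrow, WT fetal liver and iE/R fetal liver. The promoter driving the fusion, how many mice went into a library and their sex are not given in the sources used here, so the p-values measure the spread between these libraries, which may be technical.

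Polycomb complexes keep genes silent through marks on histones. PRC2 adds methyl groups to lysine 27 of histone H3 through the enzyme EZH2 or its relative EZH1, on a scaffold of EED and SUZ12. EZH2 is known from dividing and fetal cells, whereas EZH1 is known from resting and adult cells and is associated with the maintenance of adult HSCs. PRC1 binds that mark through chromodomain (CBX) subunits and attaches ubiquitin to histone H2A through RNF2 or RING1, paired with a ring finger partner such as BMI1. BMI1 is needed for HSC self-renewal, and CBX7 and CBX8 are competing subunits known for opposite roles in stem cell maintenance and differentiation.

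Because the fusion carries the DNA-binding domain of RUNX1, the promoters of the members were searched for the RUNX letters TGTGGT on both strands, in RefSeq windows of 250 bases before and 50 after the transcription start (build GRCm38.p6). Of the 10 members 9 had an entry, with 10 promoters in all, and Cbx2 had none. The letters were present in 2 of the 10, those of Ezh2 and of 1 of the 2 Jarid2 starts, against 16.8% of 32851 mouse promoters. The sequences below, 5′ to 3′ on the gene's strand, show these matches in capitals (ACCACA is the reverse complement) and the Ezh1 promoter, which held no match, since Ezh1 and Jarid2 were the members called in fetal liver and Ezh2 is the catalytic alternative to Ezh1. For Ezh2 only the 30 bases around the match are shown.
Ezh1, chr11:101226464-101226713, minus strand: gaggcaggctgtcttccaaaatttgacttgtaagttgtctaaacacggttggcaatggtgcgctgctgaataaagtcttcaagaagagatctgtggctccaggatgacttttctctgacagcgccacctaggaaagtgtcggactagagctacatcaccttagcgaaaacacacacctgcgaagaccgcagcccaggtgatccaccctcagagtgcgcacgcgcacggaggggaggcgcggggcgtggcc
Ezh2, chr6:47595230-47595259, minus strand: aaagacagcgacTGTGGTgcttccacccag
Jarid2, chr13:44730524-44730773, plus strand: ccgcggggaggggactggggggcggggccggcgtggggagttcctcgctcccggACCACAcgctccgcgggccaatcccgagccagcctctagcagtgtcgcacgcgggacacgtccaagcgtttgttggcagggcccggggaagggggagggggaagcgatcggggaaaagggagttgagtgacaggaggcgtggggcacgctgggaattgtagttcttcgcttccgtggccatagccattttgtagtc

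The match began 217 bases before the RefSeq start in Ezh2 and 196 bases before the RefSeq start in Jarid2. By the GENCODE gene positions printed below, both matches lie within the gene, whose outermost start is further upstream. The ETS letters CCGGAAG, for the family of ETV6, were found in none of the 10 promoters, against 8.86% of all. Of 3 forms of the E2F site, TTTGGCGC occurred in Ezh2 alone, 4 bases after the start, against 0.514% of all promoters, and neither TTTCGCGC (0.323% of all) nor TTCCCGCC (2.19%) occurred in a member. The interferon-stimulated response element was likewise found in 0 of the 10, against 3.44% of all. The member promoters shared a high density of CG dinucleotides, with a median of 24 in 300 bases against 7 over all promoters and a median GC content of 65.2% against 52.7%. Of the 10 genes 4 lie on chromosome 11, where Cbx2 and Cbx8 are neighbours 5034 bases apart.

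The libraries held 32.3 to 64.5 M reads, so that 3 reads, taken as the floor, equalled 0.0465 to 0.0928 CPM. Runx1 and Etv6, whose exons the fusion shares, served as a check of the genotype labels. In limma, Runx1 was higher with the fusion in fetal liver (log2 fold change 0.90, adjusted p = 0.000153) and in bone marrow (0.81, adjusted p = 0.00178). Etv6 was higher in fetal liver (0.55, adjusted p = 0.0146), and missed the threshold there without WT replicate 3 (0.43, limma adjusted p = 0.0772) and in bone marrow (0.46, adjusted p = 0.0633). All 8 HSC markers were above the floor in every group, with summed levels of 1538 to 3954 CPM. The share of reads in processed pseudogenes differed between libraries, several members moved with it, and what it reflects was not tested. It was 1.23% to 1.90% in iE/R fetal liver and 1.65% to 2.36% in WT fetal liver. In bone marrow it was 1.60% to 2.23% in WT and 2.12% to 2.55% in iE/R. Mitochondrial transcripts made up 0.921% to 1.10% of reads in iE/R fetal liver and 1.34% to 1.84% in the other groups.

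Per kilobase of exon, Rnf2 and Eed were the most abundant members and the CBX genes the least. The median level over 12 libraries was 24.3 CPM per kb for Rnf2 and 22.0 for Eed, followed by Suz12 at 11.1, Ezh2 at 11.1, Jarid2 at 9.58, Ezh1 at 5.18 and Bmi1 at 4.97. Cbx2 at 1.73, Cbx8 at 1.16 and Cbx7 at 0.916 CPM per kb came last. The members also differed in how far they ranged across libraries. The highest library was 4.12 times the lowest for Jarid2 and 3.59 times for Ezh1, but 1.43 times for Ezh2 and 1.37 times for Eed.

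**Figure D1:**
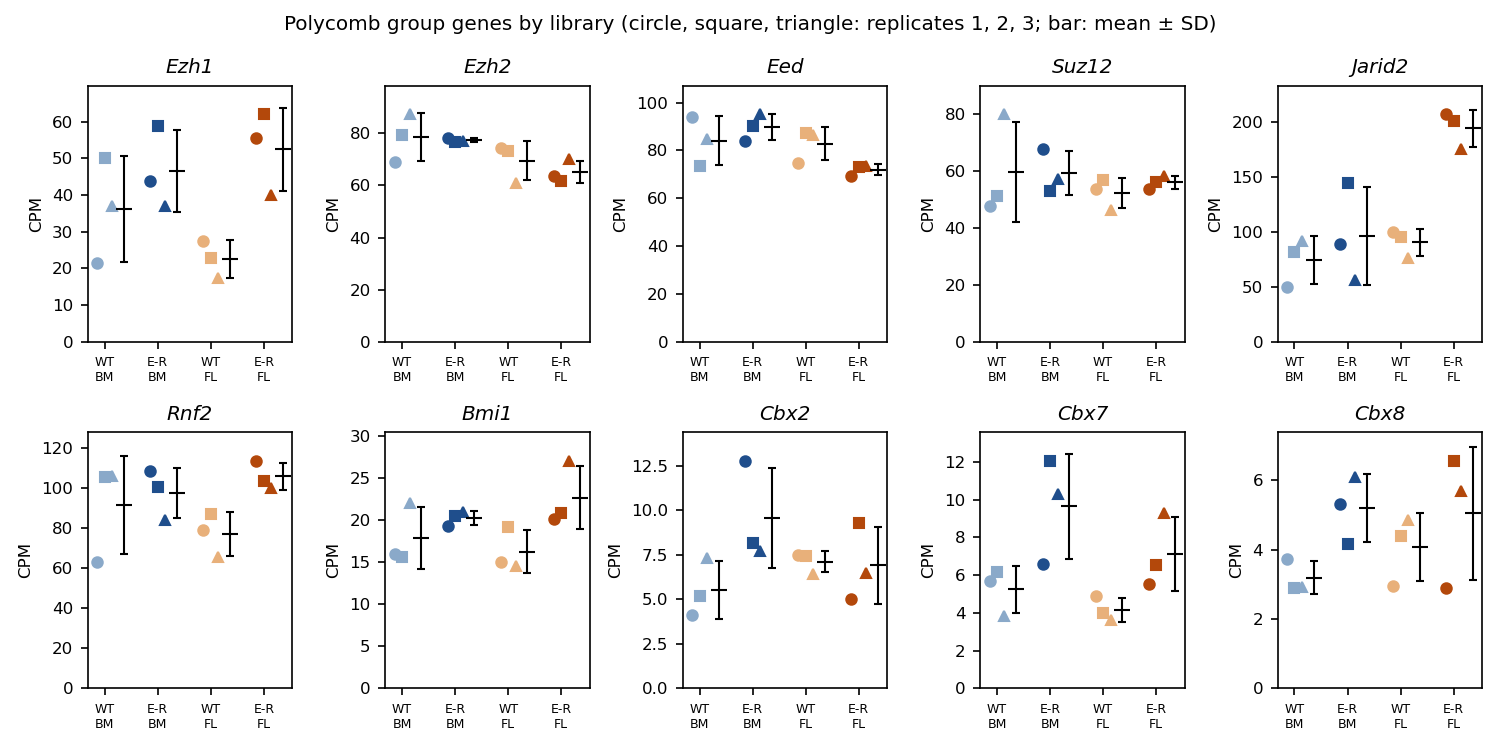
CPM of the 10 Polycomb group genes in each of 12 libraries, with a linear axis from 0 in every panel; BM is bone marrow, FL is fetal liver, E-R is ETV6-RUNX1 (iE/R), and the bar beside each group is its mean ± SD over 3 libraries. Ezh1 and Jarid2 stand higher in all 3 iE/R fetal liver libraries than in all 3 WT fetal liver libraries, and Ezh2 stays between 60.9 and 87.3 CPM throughout.

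The fusion was first compared with WT within fetal liver. Ezh1 (ENSMUSG00000006920, chr11:101191115-101226463, minus strand) and Jarid2 (ENSMUSG00000038518, chr13:44729474-44921643, plus strand) rose, and no member fell. This made 2 of 10 members called, against 43.1% of all 14271 genes tested in either direction, 24.8% higher and 18.3% lower. With only the 6 libraries compared, or without WT bone marrow replicate 3, 4 members were called, so the count says little of how the members stand against other genes. Their median log2 fold change was 0.34, beside 0.08 over all genes tested. Quantile normalization moved that all-gene median to -0.10 and turned 3544 higher and 2607 lower genes into 2717 and 3746, and Ezh1 and Jarid2 remained called and higher. Beside the 0 that fell in limma, 0 fell at an unadjusted p under 0.05, and edgeR and DESeq2 each called 0.

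Ezh1 read 27.6, 22.8 and 17.3 CPM in the WT fetal liver libraries and 55.5, 62.0 and 40.1 CPM with the fusion. The groups did not overlap, and the lowest iE/R library stood above the highest WT library. On the log2(CPM + 1) scale, which understates changes of low genes, the difference was 1.19 ± 0.28 (SE, n = 3 against 3, limma adjusted p = 0.00356), and it was called in all 22 alternatives, with adjusted p between 0.000107 and 0.0209. In means, this was 52.5 ± 11.3 against 22.5 ± 5.15 CPM (SD, n = 3), 2.33 times as much.

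Ezh2 (ENSMUSG00000029687, chr6:47530139-47595341, minus strand), the catalytic alternative to Ezh1, read 74.4, 73.4 and 60.9 CPM in WT fetal liver and 63.6, 61.8 and 70.2 CPM in iE/R fetal liver. These ranges overlapped, and the log2 fold change was -0.09, with a 95% interval from -0.37 to 0.19 (limma adjusted p = 0.610). In this fit, a 2-fold change of Ezh2 in either direction lies outside that interval.

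The balance of the catalytic pair was followed as the ratio of Ezh1 to Ezh2 per kilobase. It was 0.255 to 0.333 in WT fetal liver and 0.513 to 0.901 in iE/R fetal liver, without overlap. The mean log2 ratio differed by 1.31, a 2.48-fold shift (two-sided exact permutation p = 0.1, the smallest that 3 libraries against 3 allow, 0.267 after adjustment over 4 comparisons). With the processed pseudogene share in the fit, added after seeing the data, the difference was 0.77. Ezh2 still exceeded Ezh1 per kilobase in all 12 libraries. In bone marrow the ratio was 0.279 to 0.566 in WT and 0.430 to 0.687 with the fusion, and these ranges overlapped (exact permutation p = 0.3, adjusted 0.3).

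**Figure D2:**
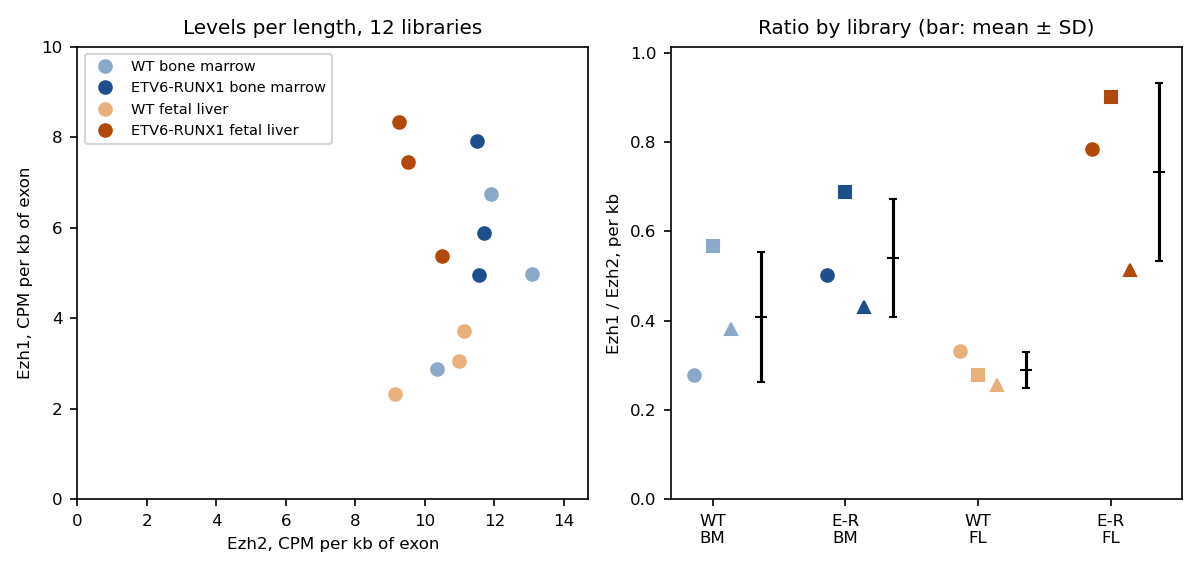
Left, Ezh1 against Ezh2 in CPM per kb of exon, 1 point per library; right, the ratio of Ezh1 to Ezh2 per kb by library, with circles, squares and triangles for replicates 1, 2 and 3 and the mean ± SD of each group beside them (BM bone marrow, FL fetal liver, E-R iE/R). The groups spread mainly along the Ezh1 axis, and the ratio is 0.255 to 0.333 in WT fetal liver and 0.513 to 0.901 in iE/R fetal liver.

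Jarid2, a PRC2 subunit that helps the complex to its targets, read 99.6, 94.8 and 76.5 CPM in WT fetal liver and 207, 200.5 and 175 CPM in iE/R fetal liver. The groups were well apart. The log2 fold change was 1.10 ± 0.28 (SE, n = 3 against 3, limma adjusted p = 0.00575), or 2.15 times in means.

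The scaffold genes moved little. Eed read 74.9, 87.1 and 86.5 CPM in WT fetal liver and 69.4, 72.9 and 73.6 CPM with the fusion, which did not overlap, but its log2 fold change of -0.20 did not pass the test (limma adjusted p = 0.229). Suz12 read 53.6, 56.7 and 46.3 CPM in WT fetal liver and 53.7, 55.9 and 58.2 CPM with the fusion, with overlap. Its log2 fold change was 0.10 (95% interval -0.28 to 0.49), and turned to -0.04 after quantile normalization.

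Among PRC1 members in fetal liver, none passed the threshold. Bmi1 read 15.0, 19.2 and 14.6 CPM in WT and 20.2, 20.9 and 27.1 CPM with the fusion, a log2 fold change of 0.45 (limma adjusted p = 0.0574). Rnf2, the catalytic ring finger subunit, read 79.2, 87.1 and 65.4 CPM in WT and 114, 104 and 100.2 CPM with the fusion, a log2 fold change of 0.46 (limma adjusted p = 0.0638). Neither pair of groups overlapped. Cbx7 read 4.89, 3.98 and 3.64 CPM in WT and 5.53, 6.54 and 9.30 CPM with the fusion (0.63, limma adjusted p = 0.0534), also without overlap. Cbx2 at -0.07 and Cbx8 at 0.22 had overlapping groups, and Cbx8 turned to -0.03 after quantile normalization.

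**Figure D3:**
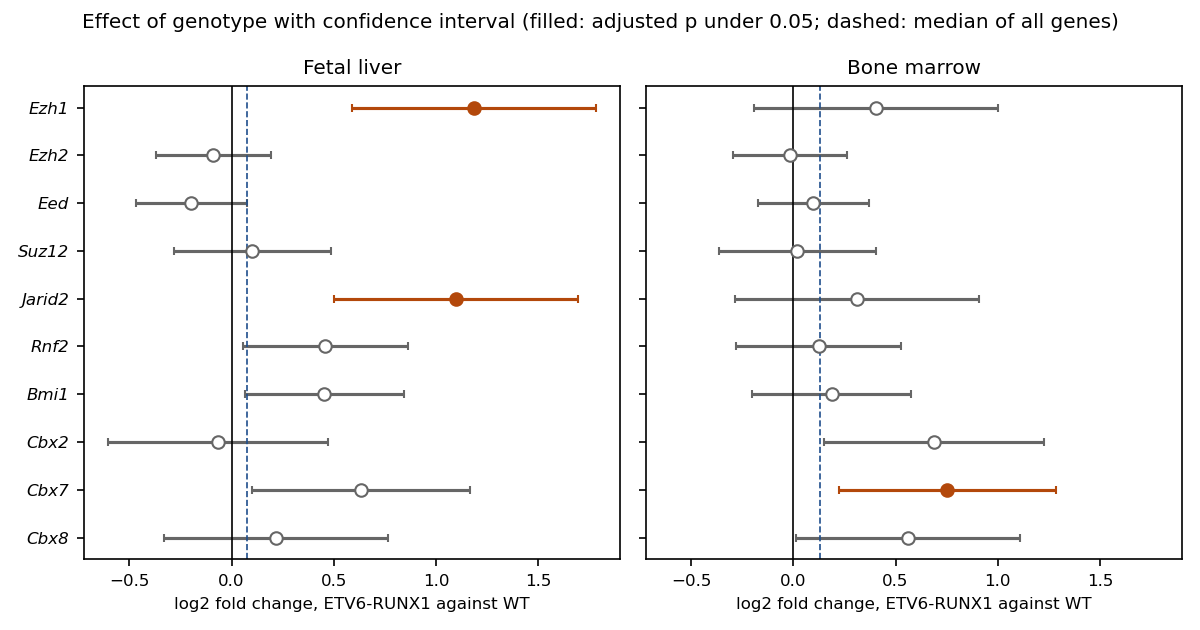
Log2 fold change of iE/R against WT (x axis) for each of the 10 genes in fetal liver (left) and bone marrow (right), with 95% intervals from limma. Filled points passed an adjusted p of 0.05, and the dashed line is the median of all genes tested (0.08 in fetal liver, 0.13 in bone marrow); Ezh1 and Jarid2 are filled on the left and Cbx7 on the right.

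Other measures moved with the fusion in fetal liver beside Ezh1 and Jarid2, and their part in these changes was not tested. Of 25 proliferation genes 18 fell and 0 rose in limma (0 at an unadjusted p under 0.05, and 0 by edgeR and DESeq2), and their summed level was 3038 to 3886 CPM with the fusion and 5199 to 6147 CPM in WT. Mki67 fell by 0.55 and Mcm2 by 0.67 on the log2 scale (limma adjusted p = 0.0150 and 0.00895), and Mki67 missed the threshold without WT replicate 1 (-0.46, adjusted p = 0.0629) or iE/R replicate 3 (-0.50, adjusted p = 0.0524). Top2a at -0.34 and E2f1 at 0.03 did not pass, and E2f1 turned to -0.04, -0.19, -0.07 and -0.05 with median-of-ratios scaling, quantile normalization, edgeR and DESeq2. The summed 5 megakaryocyte markers were 6636 to 7005 CPM with the fusion and 2882 to 4339 CPM in WT. Limma called 2 of them higher and 1 lower, Gp9 at -0.84, which was called in all 22 alternatives. The 6 erythroid markers summed to 1412 to 2188 CPM with the fusion and 729 to 1010 CPM in WT. Of the 5 erythroid markers tested 4 rose, and 1 was at -0.49 without being called. The 8 HSC markers summed to 3845 to 3954 CPM with the fusion and 1538 to 1887 CPM in WT. In bulk RNA, more cells of a type and more RNA per cell cannot be told apart. The 6 macrophage markers summed to 114 to 122 CPM with the fusion and 42.0 to 49.1 CPM in WT, with C1qa at or below the floor in both. The granulocyte, mast cell and stroma sums were lower with the fusion, and the hepatocyte and T cell sums overlapped. The 6 granulocyte markers summed to 7.61 to 13.1 CPM with the fusion and 19.5 to 120 CPM in WT, almost all of it Mpo, a granule enzyme also made by progenitors (-2.31, limma adjusted p = 0.00457), while 4 of the 6, Ly6g among them, were at or below the floor in WT and 5 with the fusion. The 5 mast cell markers summed to 2.98 to 5.22 CPM with the fusion and 7.01 to 11.2 CPM in WT, and 2 of the 3 tested fell. The 5 stroma markers summed to 1.20 to 2.06 CPM and 4.65 to 10.01 CPM, and 1 of the 2 tested fell. Of the 3 hepatocyte markers tested 2 fell, the 5 summed to 15.1 to 17.3 CPM with the fusion and 16.4 to 20.7 CPM in WT, and Ttr was at or below the floor in both. The 5 T cell markers summed to 1.41 to 2.64 CPM with the fusion and 1.02 to 2.29 CPM in WT. Cd3e was at or below the floor in both. The 4 endothelial markers summed to 186 to 224 CPM with the fusion and 130 to 169 CPM in WT, and 2 of the 4 rose. The other 2 had negative log2 fold changes, the lowest at -0.54, and were not called. The 5 B cell markers summed to 55.4 to 81.6 CPM with the fusion and 50.1 to 52.5 CPM in WT, and the 1 tested did not pass.

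Ezh1 levels also moved with the processed pseudogene share. In each of the 4 groups the library with the lower share had the higher Ezh1 level, in exact inverse order over the 3 libraries, while Jarid2 was in inverse order in 2 groups and Ezh2 in 1. With the share added to the limma fit, likewise chosen after seeing the data, Ezh1 remained called in fetal liver at 0.58 ± 0.16 (SE, adjusted p = 0.0152) and was then called in bone marrow at 1.00 ± 0.16 (adjusted p = 0.00215). Jarid2 was then at 0.61 in fetal liver (limma adjusted p = 0.0692, against 7.75e-05 to 0.0692 over its 22 alternatives) and at 0.79 in bone marrow (limma adjusted p = 0.0304). The share itself differed between the groups, so the fusion and the share are only partly told apart.

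**Figure D4:**
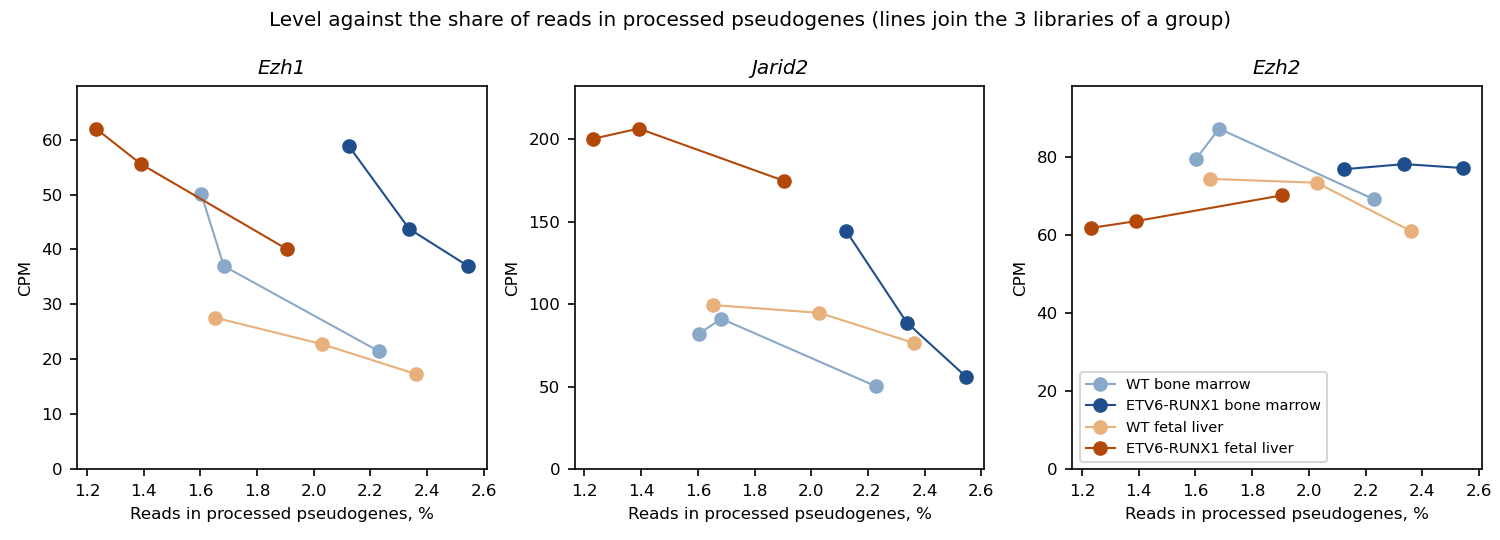
CPM of Ezh1, Jarid2 and Ezh2 (y axes, linear from 0) against the percentage of reads in processed pseudogenes (x axis), with lines joining the 3 libraries of each group. Ezh1 falls from left to right within all 4 groups, and Ezh2 lies between 60.9 and 87.3 CPM at every share.

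The fusion was next compared with WT within bone marrow. Of the 10 members 1, Cbx7, rose and none fell, against 19.4% of all genes in either direction, 14.4% higher and 4.93% lower. Beside the 0 that fell in limma, 0 fell at an unadjusted p under 0.05, and edgeR and DESeq2 called 0. The median log2 fold change of the members was 0.25, beside 0.13 over all genes. Median-of-ratios scaling moved that all-gene median to 0.01, and turned 2059 higher and 704 lower genes into 1480 and 1313.

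Other measures moved with the fusion in bone marrow too, and their part in the members' values was not tested. Of the 25 proliferation genes 11 fell and 0 rose in limma (0 at an unadjusted p under 0.05, and 0 by edgeR and DESeq2), with a summed level of 4167 to 5555 CPM with the fusion and 5934 to 7492 CPM in WT. Of the 8 HSC markers 5 rose, and their sum was 2726 to 3001 CPM against 1637 to 2452 CPM. The 6 macrophage markers summed to 84.5 to 106 CPM and 36.2 to 56.5 CPM, with C1qa and C1qb at or below the floor in both. Only 1 of the 4 macrophage markers tested was called higher. Of the mast cell markers 2 of the 3 tested fell, and the 5 summed to 7.56 to 15.6 CPM with the fusion and 26.7 to 44.6 CPM in WT. The sums of the 5 megakaryocyte markers overlapped, at 320 to 1888 CPM with the fusion and 1157 to 1607 CPM in WT, while Gp9, a platelet glycoprotein among them, fell by 2.51 (limma adjusted p = 2.77e-05). The 6 granulocyte markers summed to 0.774 to 1.08 CPM with the fusion and 1.79 to 135 CPM in WT, where the libraries differed widely. Only 1 of these 6, Mpo, was tested, and it was not called (-1.36).

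Cbx7, a PRC1 subunit that reads the PRC2 mark, read 5.71, 6.17 and 3.84 CPM in WT bone marrow and 6.57, 12.1 and 10.3 CPM with the fusion. The groups did not overlap, by a gap of less than 1 CPM. The log2 fold change was 0.75 ± 0.25 (SE, n = 3 against 3, limma adjusted p = 0.0469), but only 3 of 22 alternatives made the call, with adjusted p from 0.0229 to 0.221, and it was lost without any 1 of 10 of the 12 libraries. Cbx7 (chr15:79915807-79971119, minus strand) shares 100 exon bases, 1.54% of its exons, with Apobec3 on the opposite strand. Apobec3 averaged 536 CPM and was itself at 659 to 761 CPM with the fusion and 440.1 to 517 CPM in WT bone marrow. In fetal liver Apobec3 was at 644 to 739 CPM with the fusion and 234 to 267 CPM in WT. Whether strand was used in counting is not given in the sources used here, so Cbx7 values are uncertain in both sources of cells.

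The other CBX members leaned the same way in bone marrow without passing. Cbx2 read 4.11, 5.16 and 7.32 CPM in WT and 12.8, 8.16 and 7.70 CPM with the fusion (0.69, limma adjusted p = 0.0685). Cbx8 read 3.73, 2.90 and 2.91 CPM in WT and 5.32, 4.17 and 6.10 CPM with the fusion (0.56, limma adjusted p = 0.135). Neither pair of groups overlapped.

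The catalytic and scaffold genes overlapped between genotypes in bone marrow. Ezh1 read 21.5, 50.2 and 37.0 CPM in WT and 43.7, 58.9 and 36.9 CPM with the fusion, a log2 fold change of 0.41 (95% interval -0.19 to 1.00, limma adjusted p = 0.323). WT replicate 1, the library with the lowest Ezh1 level of its group, also had its highest pseudogene share, 2.23%. Ezh2 read 69.2, 79.5 and 87.3 CPM in WT and 78.2, 76.8 and 77.1 CPM with the fusion (-0.02, 95% interval -0.30 to 0.26).

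Jarid2 was uneven within both bone marrow groups, at 50.2, 82.1 and 91.2 CPM in WT and 88.9, 144 and 56.2 CPM with the fusion. Its log2 fold change of 0.31 did not pass (limma adjusted p = 0.459). Eed read 94.0, 73.5 and 84.6 CPM in WT and 83.9, 90.2 and 95.0 CPM with the fusion, and Suz12 read 47.5, 51.3 and 79.7 CPM and 67.6, 52.8 and 56.9 CPM. Bmi1 read 16.0, 15.6 and 22.1 CPM in WT and 19.3, 20.6 and 20.9 CPM with the fusion, and Rnf2 63.3, 105 and 106 CPM and 108, 101 and 83.9 CPM. All 4 genes had overlapping groups and log2 fold changes between 0.02 and 0.19, and each of these 4 values turned negative under at least 1 other scaling.

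Whether the fusion acted differently in the 2 sources was tested as an interaction. No member passed in limma, against 9.19% of all genes. None had an unadjusted p under 0.05, and edgeR and DESeq2 called 0. The largest differences between the fetal liver and bone marrow effects were 0.79 for Jarid2 (limma adjusted p = 0.217), 0.78 for Ezh1 (0.223) and -0.75 for Cbx2 (0.191). Hence the rise of Ezh1 and Jarid2 in fetal liver was not shown to differ from their bone marrow values. Ezh1 was called without WT bone marrow replicate 1 (1.10, limma adjusted p = 0.0359, against 0.0359 to 0.471 over its 21 alternatives), and Jarid2 without iE/R bone marrow replicate 2 (1.13, adjusted p = 0.0499, against 0.0499 to 0.850).

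Fetal liver was then compared with bone marrow within WT, where the EZH1 and EZH2 levels of the 2 developmental stages can be set side by side. No member passed in limma, against 11.1% of all genes in either direction and 7.77% lower. One member, Ezh1, had an unadjusted p under 0.05, and edgeR and DESeq2 called 0. The median over the members was -0.14, beside -0.07 over all genes. Ezh1 averaged 22.5 ± 5.15 CPM in fetal liver and 36.2 ± 14.4 CPM in bone marrow (SD, n = 3), a log2 fold change of -0.60 (limma adjusted p = 0.191) with overlapping groups. Without WT bone marrow replicate 1, Ezh1 was called at -0.93 (limma adjusted p = 0.0185, against 0.0185 to 0.614 over 22 alternatives) and Rnf2 at -0.46 (adjusted p = 0.0469). Ezh2 averaged 69.6 ± 7.48 CPM in fetal liver and 78.7 ± 9.08 CPM in bone marrow (-0.17, 95% interval -0.45 to 0.11), so it was not shown to be higher in the fetal cells.

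The sources were apart by genes known to mark fetal HSCs. All 5 genes of the Lin28b axis, an RNA-binding program of fetal blood stem cells, were higher in WT fetal liver than in WT bone marrow. Lin28b was at 16.0 ± 2.48 against 1.27 ± 0.22 CPM (SD, n = 3), and the log2 differences were 2.90 for Lin28b, 1.72 for Hmga2, 3.99 for Igf2bp1, 2.44 for Igf2bp2 and 5.0 for Igf2bp3. Cbx2, known as a target of that axis, differed by 0.34 (limma adjusted p = 0.429). Xist, which is expressed from an inactive X chromosome, ranged from 0.175 to 1.27 CPM in bone marrow and from 51.7 to 89.3 CPM in fetal liver, so source and the sex makeup of the animals cannot be told apart. None of the 10 members lies on the X chromosome.

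Within the fusion libraries, fetal liver exceeded bone marrow in 1 member and fell below it in 0, against 28.6% of all genes in either direction, 10.4% higher and 18.2% lower. Of members that were lower, 1 (Eed) had an unadjusted p under 0.05, and edgeR and DESeq2 called 0. The member was Jarid2, at 194 ± 16.9 against 96.5 ± 44.6 CPM (SD, n = 3), with a log2 difference of 1.10 ± 0.28 (SE, n = 3 against 3, limma adjusted p = 0.00936) and no overlap. It was lost with the pseudogene share in the fit (0.30, adjusted p = 0.502, against 0.000118 to 0.502 over 22 alternatives). The genotype and source comparisons share libraries, so the recurrence of Jarid2 is not independent. Ezh1 (52.5 against 46.5 CPM) and Ezh2 (65.2 against 77.4 CPM) did not pass at 0.18 and -0.25, and with the pseudogene share in the fit Ezh1 turned to -0.82 and was called (limma adjusted p = 0.0125).

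Across the 4 groups, the order of Ezh1 from high to low was iE/R fetal liver, iE/R bone marrow, WT bone marrow and WT fetal liver, and no neighbours in that order were apart. For Ezh2 the order was WT bone marrow, iE/R bone marrow, WT fetal liver and iE/R fetal liver, and only iE/R bone marrow and WT fetal liver were apart. Over the 12 libraries and 9898 genes compared, the log2 levels most like those of Ezh1 were Zfyve27 (Pearson r 0.988), Acox3 (0.977) and Tom1l2 (0.975). The closest to Ezh2 were Sh3rf1 (0.944), Miga1 (0.943) and Ptpn4 (0.917), and to Cbx2 Klhl12 (0.877), Tmem201 (0.868) and Soat2 (0.867). These values describe libraries that share group, depth and quality, and carry no test.

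The remaining Polycomb genes were taken from a list of 44 that also holds the PR-DUB complex and the demethylases of histone H3 lysine 27, of which 43 were in the table and 42 were tested. In fetal liver 20 of the 42 changed with the fusion, 16 up and 4 down, a share of 47.6% beside the 43.1% of all genes. Their median log2 fold change was 0.29. Auts2, which turns a PRC1 variant toward activation, was at 2.88 ± 0.73 CPM in WT and 33.4 ± 8.63 CPM with the fusion (SD, n = 3), a log2 fold change of 3.14 (limma adjusted p = 2.39e-07). Pcgf5, a ring finger partner in the same kind of PRC1, rose by 1.17, from 17.5 to 41.0 CPM (limma adjusted p = 8.49e-05), and Mbd5, of PR-DUB, which removes ubiquitin from H2A, rose by 1.38 (adjusted p = 0.000106). Of the 7 PR-DUB genes tested 5 rose and none fell, beside 24.8% of all genes called higher. These 5 calls were made in 22, 20, 12, 8 and 7 of 22 alternatives. Bap1, the enzyme of the complex, was not among the 5, and no alternative called it (-0.26 to 0.12 over 22 alternatives). Pcgf6, the ring finger partner of another PRC1, fell by 0.94, the ubiquitin ligase part Skp1a by 0.44, and the PRC2 cofactor Epop by 0.63 (limma adjusted p = 0.00226, 0.0104 and 0.0118).

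Counts over this list depended on single libraries. In fetal liver, 12 of the 42 were called without WT replicate 3, and 13 without iE/R replicate 1 or without iE/R replicate 2. The demethylases on the list, which erase the PRC2 mark, were among those that rose in fetal liver, and were called in all 22 alternatives. Kdm6b was at 24.4 to 49.0 CPM in WT and 119 to 152 CPM with the fusion (1.79, limma adjusted p = 0.00288), and Kdm6a at 26.2 to 40.1 CPM and 58.4 to 63.4 CPM (0.84, adjusted p = 0.00463). Kdm6a lies on the X chromosome, and the part of the sex makeup of the animals in its values was not tested. In bone marrow Kdm6b at 1.13 and Kdm6a at 0.40 missed the threshold (limma adjusted p = 0.0645 and 0.182). There, 3 of 22 alternatives called Kdm6b and 1 of 22 called Kdm6a. So in iE/R fetal liver, RNAs of a methyltransferase, Ezh1, and of both demethylases of histone H3 lysine 27 were higher together. Over the 22 alternatives the fetal liver change went as low as 0.99 for Kdm6b and 0.59 for Kdm6a. In WT bone marrow, WT fetal liver and iE/R bone marrow, Kdm6b was lowest in the library with the highest pseudogene share (16.2, 24.4 and 36.5 CPM). In iE/R fetal liver it was not.

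**Figure D5:**
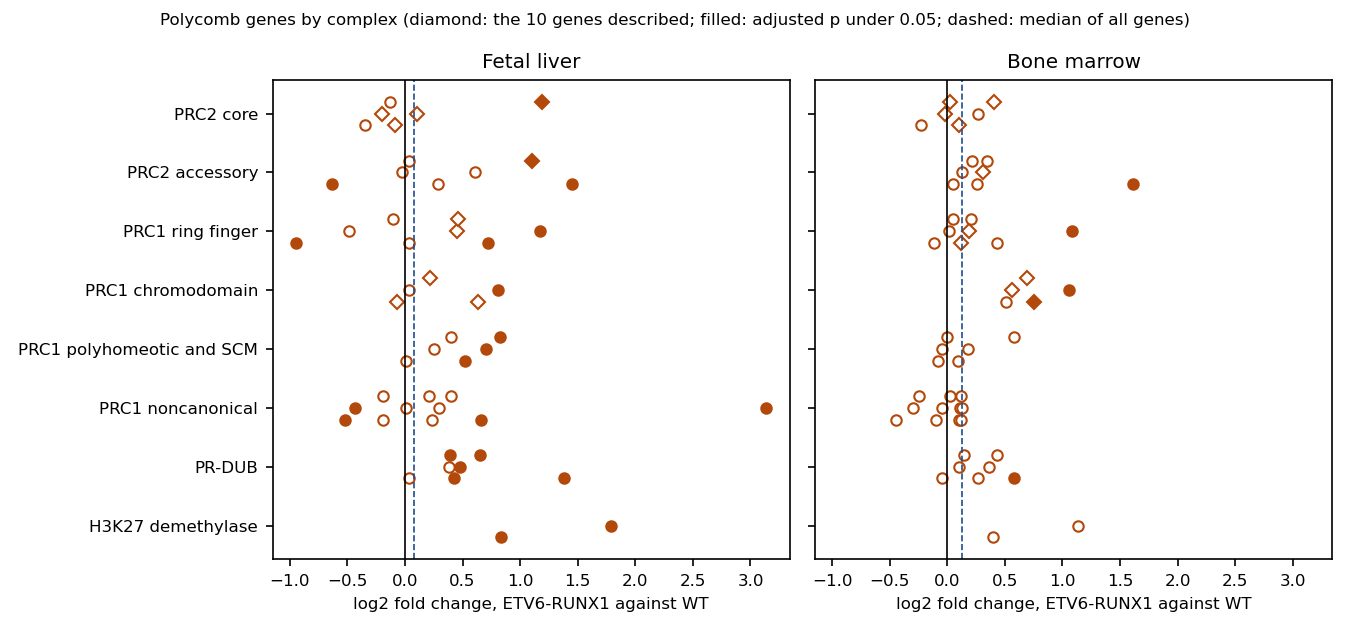
Log2 fold change of iE/R against WT (x axis) for Polycomb genes grouped by complex (rows), in fetal liver (left) and bone marrow (right); diamonds are the 10 genes described, filled symbols passed an adjusted p of 0.05 in limma, and the dashed line is the median of all genes. Auts2 lies far to the right in fetal liver at 3.14, and Phf1 at 1.61 in bone marrow.

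In bone marrow 4 of the 42 rose and 0 fell, 9.52% beside 19.4% of all genes. Beside that 0 in limma, 1 fell at an unadjusted p under 0.05, and edgeR and DESeq2 each called 1. Cbx6, a CBX subunit, was at 61.9 ± 7.57 CPM in WT and 129 ± 11.7 CPM with the fusion (SD, n = 3), a log2 fold change of 1.05 (limma adjusted p = 0.000540). Cbx6 was also called in fetal liver (0.81, in all 22 alternatives), at 34.4 to 45.5 CPM in WT and 60.7 to 74.2 CPM with the fusion. Its interaction was not called, in limma or in any of 21 alternatives. The PRC2 cofactor Phf1 rose from 1.62 ± 0.40 to 7.51 ± 4.0 CPM (1.61, adjusted p = 0.00178), and Ring1, the alternative to Rnf2, from 2.32 ± 0.39 to 6.35 ± 2.87 CPM (1.08, adjusted p = 0.0106). Phf1 shares 39.3% of its exons with Cuta on the opposite strand, which averaged 126 CPM, so its values are uncertain if strand was not used in counting. In WT, fetal liver was lower than bone marrow for Cbx6 by 0.68, Scml4 by 0.86 and Scmh1 by 0.68 (limma adjusted p = 0.00877, 0.0153 and 0.0350). That made 3 of the 42, or 7.14%, beside 7.77% of all genes called lower and 11.1% in either direction, and 0 were higher. Beside that 0, 2 were higher at an unadjusted p under 0.05, and edgeR and DESeq2 each called 1. Without WT bone marrow replicate 2, all 3 were lost (limma adjusted p = 0.0516 for Cbx6, 0.0954 for Scml4 and 0.127 for Scmh1). The count rested on single libraries: 12 of the 42 were called without WT bone marrow replicate 1, 0 without replicate 2, and 1 without replicate 3 or without WT fetal liver replicate 3.

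Genes that Polycomb is known to hold silent stayed low. Of 25 developmental regulators 24 were under 1 CPM in all 12 libraries and could not be tested, so no change was detectable at this depth. The exception was Bmp4, a secreted growth factor, which rose with the fusion by 1.90 in fetal liver (from 0.319 to 4.26 CPM, limma adjusted p = 0.000253) and by 1.57 in bone marrow (from 2.00 to 8.31 CPM, adjusted p = 0.00418). Cdkn2a, the best known Polycomb target among the cell cycle inhibitors, was at or below the floor in every library of WT bone marrow, iE/R bone marrow and iE/R fetal liver, and at 0.0310 to 0.167 CPM in WT fetal liver. Cdkn2b stayed under 1 CPM throughout.

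The 3 other cell cycle inhibitors were measurable. In bone marrow, Cdkn2c was at 5.29 ± 1.47 CPM in WT and 14.6 ± 0.52 CPM with the fusion (SD, n = 3), a log2 fold change of 1.34 (limma adjusted p = 0.00290). Cdkn1a rose by 1.12 (limma adjusted p = 0.0392), and was lost without any 1 of 5 bone marrow libraries (adjusted p = 0.0542 to 0.161). Cdkn1c did not pass, at 0.29 (limma adjusted p = 0.395). edgeR called 0 of these 3 in bone marrow and DESeq2 called 2. In fetal liver limma called 0 of the 3 (0 at an unadjusted p under 0.05), and edgeR and DESeq2 each called 1. Cdkn2c was far lower in WT fetal liver, at 0.0465 to 0.284 CPM, than in WT bone marrow (-2.41, limma adjusted p = 2.41e-05). Of the Lin28b axis, Hmga2, Igf2bp1 and Igf2bp2 rose with the fusion in fetal liver by 0.92, 1.45 and 0.72 (limma adjusted p = 0.000943, 0.000303 and 0.0157), and Igf2bp2 was lost without WT replicate 3 (0.58, limma adjusted p = 0.0773) or iE/R replicate 2 (0.68, adjusted p = 0.0509). Lin28b itself at -0.19 and Igf2bp3 at -0.08 did not pass.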

How the data were processed

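Per the submitters' processing notes, the tools named were bcl2fastq, STAR 2.5.1a, featureCounts 1.4.6-p5 from Subread, Salmon 0.8.2, edgeR and limma, with build GRCm38; their settings, the gene models and whether counting used strand are not given in the sources used here. Per the labels' protocols, total RNA was purified with a single cell kit and made into stranded libraries read as pairs on a NovaSeq. The authors deposited CPM per gene for 12 libraries, which as deposited were scaled to each library's total only. Within a tolerance of 0.01 reads, 100% of values were whole multiples of 1 read, so whole counts were recovered, and totals of 32.3 to 64.5 M reads followed. Floors cover counting error only, whereas the 95% intervals come from limma and rest on the spread between libraries. Of 40757 rows, 276 repeated a gene.

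Main values are log2(CPM + 1) with a pseudocount of 1, tested with limma 3.58.1 (R 4.3.3) over 4 groups in 1 model, for the 14271 genes that reached 1 CPM in 3 or more libraries, with Benjamini-Hochberg adjustment over all of them and a threshold of 0.05. Ratios were tested by exact permutation with scipy 1.17.1. Simulated data with 200 changed genes were used to test the fit. Alternatives were a pseudocount of 0.1, no filter, a mean of at least 5 CPM, median-of-ratios scaling, quantile normalization, a replicate block, only the 6 libraries compared, each library left out, and edgeR 4.0.16 and DESeq2 1.42.0 on the recovered counts. The pseudogene share as covariate, in limma and in a least-squares fit of the ratio, was added after seeing the data. Gene positions and exon lengths come from GENCODE M21, which holds 99.44% of the identifiers, and promoters from RefSeq.

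The members and gene lists were chosen with earlier results of these data known. Named in the text are all members, of the wider Polycomb list up to 3 genes that rose and 3 that fell per comparison by smallest adjusted p, all cell cycle inhibitors, Lin28b axis genes and demethylases, 4 proliferation genes, and the 3 genes most like Ezh1, Ezh2 and Cbx2 by Pearson r among genes averaging 5 CPM or more, without unnamed gene models. Lcor, Bmp4, Mpo, Gp9 and Bap1 were added after their values were seen.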

Additional observations from a re-analysis of the deposited data

Results flagged for a closer look

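None of the 10 members differed between sources in its response to the fusion by the interaction test. Of the 42 other Polycomb genes tested, 4 did, 9.52% beside 9.19% of all genes tested, so the count is near that of other genes. Of the 5 genes of the Lin28b axis, 2 did. Each is named because its fetal liver effect minus its bone marrow effect passed the limma interaction test. Auts2 differed by 3.02 on the log2 scale (limma adjusted p = 0.000112), and was called in all 21 alternatives. Igf2bp2 differed by 1.29 (adjusted p = 0.0181, called in 18 of 21) and Lcor, a PRC2 cofactor gene, by 1.32 (adjusted p = 0.0247, called in 13 of 21). Mbd5 differed by 1.02 (adjusted p = 0.0398, called in 9 of 21), Igf2bp1 by 1.23 (adjusted p = 0.0386, called in 4 of 21) and Epop by -0.89 (adjusted p = 0.0432, called in 2 of 20).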

How the results depend on the processing

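The members' calls in fetal liver, Ezh1 and Jarid2, were 2 in number and became 4 with only the 6 libraries compared and 1 with the pseudogene share as covariate, with 2 to 4 when single libraries were left out (4 without WT bone marrow replicate 3). The single bone marrow call, Cbx7, became 0 with a pseudocount of 0.1, without the filter, with median-of-ratios scaling, quantile normalization, the 6 libraries compared, edgeR and DESeq2, and 3 members were called with the covariate; leaving out libraries gave 0 to 1. Leaving out libraries also gave 0 to 1 calls for the interaction, 0 to 2 for source in WT and 1 to 1 for source in iE/R. The log2 ratio of Ezh1 to Ezh2 kept its direction in all 4 comparisons with a pseudocount, the replicate block and each library left out, with 1.14 to 1.55 for genotype in fetal liver, 0.19 to 0.70 in bone marrow, -0.69 to -0.18 for source in WT and 0.26 to 0.67 in iE/R when libraries were left out. With the covariate it was 0.77, 0.97 and -0.26 in the first 3 of these and reversed to -0.47 for source in iE/R. Of the wider list, 13 (quantile normalization) and 11 (covariate) genes were called in fetal liver, with 12 to 21 by leaving out libraries; 2 (mean of at least 5 CPM) and 9 (covariate) in bone marrow, with 3 to 5; 1 (no filter) and 1 (covariate) for the interaction, with 1 to 4; 5 (covariate) and 5 (DESeq2) for source in WT, with 0 to 12; and 6 to 17 for source in iE/R, where 6 were called without iE/R fetal liver replicate 1.

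The replicate number as a block took the bone marrow call of Cbx7 (0 members called), that of Cdkn1a, that of Scmh1 for source in WT, and left 2 wider genes called for the interaction. The numbers did not pair the libraries: same-numbered libraries of different groups had correlated deviations above 0.1 in 7 of 18 pairs (range -0.442 to 0.390, median -0.0425).

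None of the gene values that changed sign was called as reported, and 1, Ezh1 for source in iE/R with the covariate, was called after the change. With the covariate, the interaction was -0.43 for Ezh1, -0.11 for Suz12, -0.18 for Jarid2, 0.21 for Cbx8 and -0.24 for Rnf2; source in iE/R was -0.82 for Ezh1, 0.37 for Cbx8 and -0.35 for Rnf2; and genotype in bone marrow was 0.061 for Ezh2, -0.028 for Eed and -0.024 for Cdkn1c. With median-of-ratios scaling, quantile normalization, edgeR and DESeq2 in turn, where each reversed, genotype in bone marrow was -0.043, -0.062 and -0.053 for Eed (all but quantile), -0.12, -0.11, -0.16 and -0.15 for Suz12, and -0.018, -0.050 and -0.040 for Rnf2 (all but quantile). Source in WT was 0.080, 0.067, 0.080 and 0.073 for Eed, and source in iE/R was 0.092, 0.021, 0.084 and 0.089 for Suz12 and 0.056, 0.086, 0.11 and 0.12 for Cbx8. Genotype in fetal liver was -0.040, -0.19, -0.072 and -0.050 for E2f1. With quantile normalization alone, genotype in fetal liver was -0.036 for Suz12, -0.031 for Cbx8 and -0.16 for Cdkn1c (-0.00650 in edgeR), genotype in bone marrow -0.071 for Bmi1 and -0.042 for Cdkn1c, and source in WT 0.017 for Bmi1.

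Leaving out single libraries, values that crossed 0 ranged for genotype in bone marrow from -0.11 to 0.060 (Ezh2), -0.12 to 0.25 (Suz12), -0.030 to 0.64 (Jarid2) and -0.12 to 0.25 (Rnf2); for genotype in fetal liver from -0.27 to 0.12 (Cbx2), -0.14 to 0.25 (Cdkn1c) and -0.052 to 0.16 (E2f1); for the interaction from -0.16 to 0.016 (Ezh2), -0.15 to 0.22 (Suz12) and -0.35 to 0.051 (Cbx7); for source in WT from -0.11 to 0.066 (Eed), -0.29 to 0.074 (Suz12) and -0.24 to 0.032 (Bmi1); and for source in iE/R from -0.15 to 0.028 (Suz12) and -0.27 to 0.21 (Cbx8). The causes were not tested.

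Counts over all genes moved too. Bone marrow calls, 2763, became 1601 with the 6 libraries and 1520 without iE/R replicate 2. Interaction calls, 1311, became 767 without the filter, 543 with the covariate, and 2332, 731, 766, 737 and 847 without WT bone marrow replicates 1 and 2, WT fetal liver replicates 2 and 3 and iE/R fetal liver replicate 1. Source calls in WT, 1591, became 2781 and 868 without WT bone marrow replicates 1 and 2 and 904 without WT fetal liver replicate 3. Median-of-ratios scaling turned 1484 higher and 2604 lower genes for source in iE/R into 2032 and 1489, 482 and 1109 for source in WT into 651 and 948, and 794 and 517 for the interaction into 995 and 353. Depth limited the developmental regulators, of which 24 of 25 stayed under 1 CPM and were not tested.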
